A study of Mus musculus with 16 samples.

Results

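The genes described here are the mouse genes that copy DNA and govern entry into S phase: the MCM helicase, the proteins that license and fire origins, the sliding clamp and its loader, the replicative polymerases, the enzymes that supply nucleotides, the factors that rebuild chromatin behind the fork, and the cyclins E and E2F factors that set the program in motion. They were chosen by gene symbol, 51 in all, of 18194 genes with a symbol on the array. A probe set of its own was present for 50 of them, all but Chaf1a, and 49 passed the filter on dim probe sets. Tyms, thymidylate synthase, did not pass: its brightest probe set read 17.4 to 37.5 on the 16 arrays.

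The study asked which transcripts respond when TERT, the protein subunit of telomerase, is withdrawn from skin. Every mouse was an iK5-TERT double transgenic, in which the keratin 5 promoter drives the tetracycline transactivator in basal epidermis and the outer root sheath of the follicle, and the transactivator drives a mouse TERT transgene unless doxycycline is present. All mice had received doxycycline in the drinking water until 10 to 21 days of age, carried the transgene switched on thereafter, and were labelled as having follicles in anagen, the growth phase, at day 60. TERT-off mice were then injected with doxycycline (8 µg/g body weight) and TERT-on mice with PBS. Dorsal skin was biopsied at 0, 6, 12 and 24 h, and each of the 8 groups held 2 arrays. Within a cohort, arrays sharing a replicate number were treated as repeated biopsies from 1 mouse, so that 2 TERT-off mice and 2 TERT-on mice carry every comparison. In the labels the doxycycline injection is entered for the 0 h biopsies of TERT-off mice too, whereas the methods place the 0 h biopsy just before injection; they are treated here as preceding it.

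Replication begins in G1, when the origin recognition complex, Cdc6 and Cdt1 load the ring of MCM proteins onto origins. In S phase Cdc45 and the GINS complex turn the loaded ring into an active helicase, primase lays down primers, and polymerases delta and epsilon extend them while tethered to the PCNA clamp. Most of these genes are transcribed in late G1 under E2F factors, so that their mRNA level in a tissue is commonly read as a sign of how many cells are entering S phase. In skin of the growing hair follicle the matrix at the base of the bulb is the main site of division, beside the basal layer of the epidermis.

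Because E2F factors bind the promoters of many of these genes, the promoter windows of RefSeq (build GRCm38.p6, 250 bases before to 50 bases after a start) were searched on both strands for the 4 words TTTCCCGC, TTTCGCGC, TTTGCCGC and TTTGGCGC. A gene can have several windows, and the start of a window is not always the outermost annotated start of the gene. A window was present for 43 of the 51 genes. At least 1 of the words occurred in 17 of these 43 genes (39.5%), in 454 of 10108 genes tested on the arrays that have a window (4.49%) and in 704 of all 27025 genes with a window (2.6%). Among the replication genes it occurred in 8 of the 23 that passed as lower after the injection and in 9 of the 18 that were tested and did not pass, with a mean of 1.39 and 1.0 windows per gene. The word CCAAT, which 60.5% of the 43 genes and 42.1% of the tested genes carried, and the word CACGTG (16.3% and 11.6%) were searched the same way. A match describes the letters only. In 10 genes an E2F word lay wholly before the start of a window, and 8 of them are shown, first 5 genes that were lower in TERT-off skin and then 3 that did not pass. Cdc6 and Rfc3, the ones not shown, did not pass either. Each stretch is written 5′ to 3′ on the strand of its gene, with the matched word, or overlapping words, in capitals.
Mcm5 (chr8:75109340-75109383, plus strand): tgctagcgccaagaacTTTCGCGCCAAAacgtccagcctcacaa
Mcm6 (chr1:128359788-128359831, minus strand): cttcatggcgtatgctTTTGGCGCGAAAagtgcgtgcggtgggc
Mcm7 (chr5:138172025-138172064, minus strand): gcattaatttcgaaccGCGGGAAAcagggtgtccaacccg
Uhrf1 (chr17:56304112-56304151, plus strand): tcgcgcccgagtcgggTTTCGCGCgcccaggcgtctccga
Dnmt1 (chr9:20952819-20952858, minus strand): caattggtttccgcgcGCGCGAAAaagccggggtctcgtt
Orc1 (chr4:108579411-108579450, plus strand): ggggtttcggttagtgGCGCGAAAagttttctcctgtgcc
Gins3 (chr8:95633502-95633541, plus strand): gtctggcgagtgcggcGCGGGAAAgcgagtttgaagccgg
Pola1 (chrX:93632270-93632309, minus strand): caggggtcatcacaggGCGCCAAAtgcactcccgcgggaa
The last base of the capitals lies 142 bases before the start of its window in Mcm5, 99 in Mcm6, 158 in Mcm7, 178 in Uhrf1, 212 in Dnmt1, 20 in Orc1, 34 in Gins3 and 131 in Pola1. The capitals of Mcm5 and of Mcm6 hold 2 overlapping matches each, and Mcm6 has a further match nearer to its start. The start of the window is the outermost start of the gene in Mcm6 and Gins3. It lies further into the gene by 41 bases in Mcm5, 228 in Mcm7, 976 in Uhrf1, 7265 in Dnmt1, 3749 in Orc1 and 232 in Pola1, and in the last 5 of these the stretch shown lies within the annotated span of the gene.

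Values are intensities of Affymetrix probe sets on a linear scale, or differences between TERT-off and TERT-on skin on the log2 scale from a limma fit of all 16 arrays; a difference of −1 means an intensity of 50% of that in TERT-on skin. The arrays' median intensities were 32.9 to 36.3. There are 3 facts about the samples that bear on the results. The Tert probe set read 185 and 200 in the TERT-off mice and 357 and 216 in the TERT-on mice at 0 h; from 6 h on it read 8.32 to 16.1 on the TERT-off arrays and 22.6 to 64.6 on the TERT-on arrays, so it was low on all arrays after 0 h and lower without overlap in TERT-off skin. Averaged on the log2 scale, 11 hair shaft keratins, markers of the labelled anagen state, stood at 4.38 in TERT-off replicate 1 already at 0 h, against 10.96 in TERT-off replicate 2 and 10.33 and 9.13 in the TERT-on mice. The label of TERT-off replicate 1 is not borne out by these genes. Krt33b, Krt81 and Krt86 were empty on the 0 h array of TERT-on replicate 1, and its mean leaves them out. The 0 h array of TERT-on replicate 1 had a ratio of 5′ to 3′ Gapdh signal of 0.0599, and the other 15 arrays lay between 0.977 and 1.12.

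After the injection, TERT-off skin had lower levels of replication and S phase genes than TERT-on skin. Averaged over 6, 12 and 24 h, 24 of the 49 tested genes (49%) were lower and none was higher at an adjusted p under 0.05 in limma, where 12.6% of all 12580 tested genes were lower and 16.9% higher. The difference was negative for 42 of the 49 genes, with a median of −0.38, against 0.04 over all tested genes, which corresponds to a median intensity of 76.6% of that in TERT-on skin. Single genes ranged from −1.20 for E2f2 to 0.11 for Cdc45. At an unadjusted p under 0.05, 30 genes were lower and 0 were higher, with 19.1% of all genes lower. The mean log2 intensity of the 49 genes over 6 to 24 h was 7.14 and 7.25 in TERT-off replicates 1 and 2 and 7.58 and 7.63 in TERT-on replicates 1 and 2, so that the cohorts did not overlap, whereas at 0 h it was 7.64 and 7.50 in TERT-off skin and 7.58 and 7.56 in TERT-on skin. In whole skin, fewer dividing cells and less RNA per cell cannot be told apart.

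The calls depended on both TERT-on mice. Without TERT-on replicate 1 a single gene passed (Pold2; 0.836% of all genes lower) and without TERT-on replicate 2 none passed (0.0561% of all genes lower), although 22 and 19 genes stayed lower at an unadjusted p under 0.05 and the median was −0.44 and −0.37. Without TERT-off replicate 1, the mouse low in hair keratins at 0 h, 18 genes passed (8.61% of all genes lower) with a median of −0.32.

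**Figure D1:**
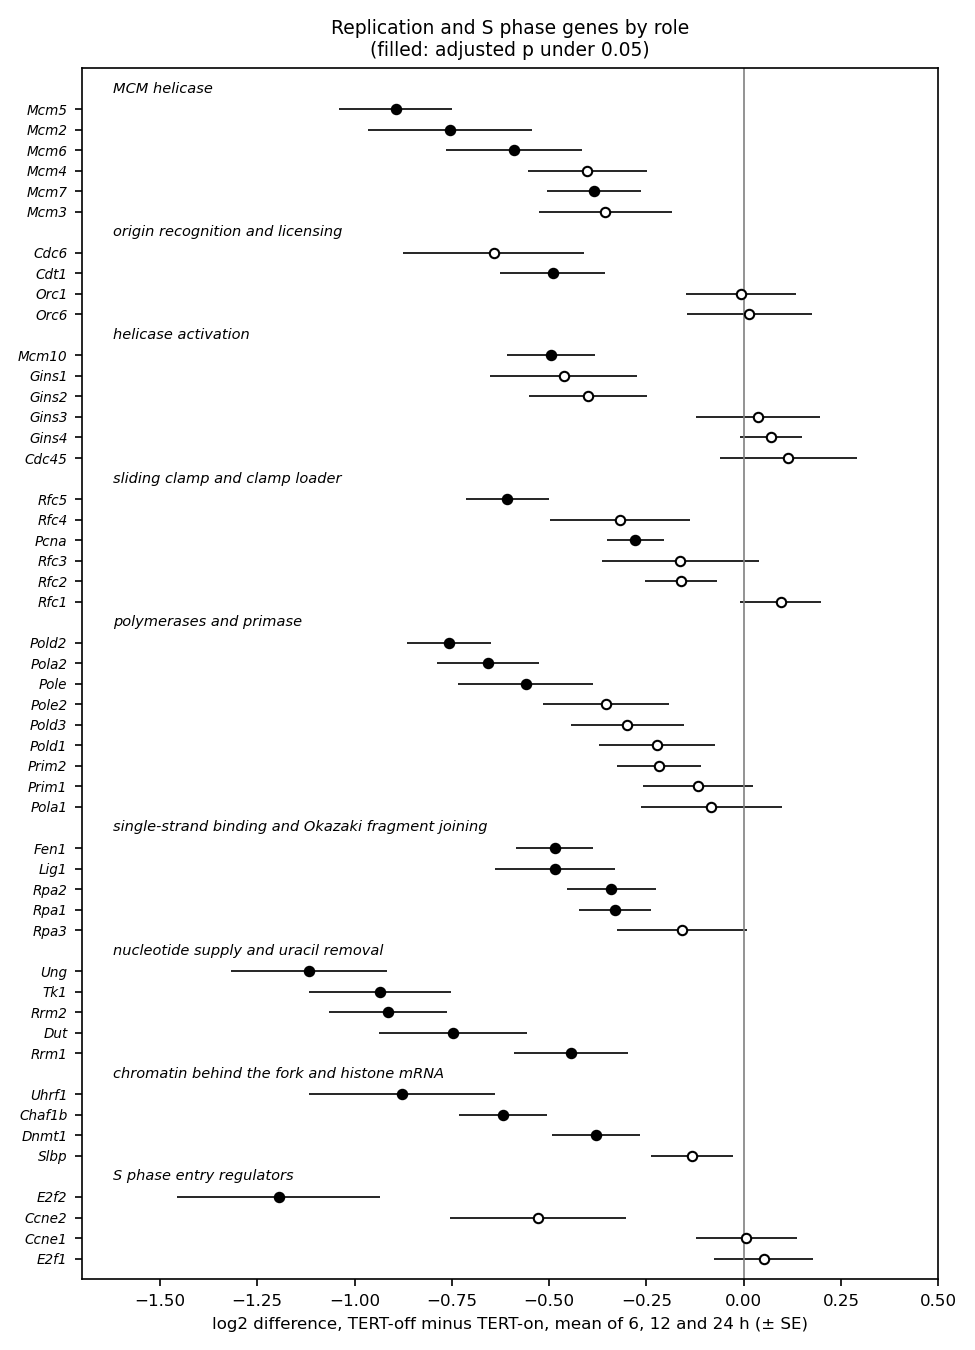
Difference between TERT-off and TERT-on skin on the log2 scale (TERT-off minus TERT-on), as the mean of 6, 12 and 24 h, for each of the 49 tested genes, grouped by role; points are estimates from the limma fit, bars are 1 standard error, and filled points have an adjusted p under 0.05. The genes of nucleotide supply and uracil removal have the lowest median of the roles (−0.92), 5 of 5 filled, E2f2 is the single gene farthest to the left, and the 7 genes to the right of 0 are open.

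The helicase ring was lower in part. Of the MCM subunits Mcm2 to Mcm7, 4 of 6 were lower (Mcm2, Mcm5, Mcm6 and Mcm7), with a median difference of −0.50. Mcm5 read 776 and 690 at 0 h, 291 and 481 at 6 h, 442 and 396 at 12 h, and then 716 and 541 at 24 h in TERT-off replicates 1 and 2. In TERT-on replicates 1 and 2 it read 826 and 813 at 0 h, 702 and 799 at 6 h, 758 and 957 at 12 h, and then 1099 and 881 at 24 h. Both TERT-off mice thus lay below both TERT-on mice at every time, most widely at 6 and 12 h, and the difference over 6 to 24 h was −0.89 (SE 0.15, adjusted p = 0.00369 from limma). Mcm2 ran from 34.6 to 152 (median 79.8) on the 6 TERT-off arrays of 6 to 24 h and from 106 to 178 (median 134) on the 6 TERT-on arrays, a difference of −0.75 (SE 0.21, adjusted p = 0.0231). Its TERT-off arrays of 24 h, at 152 and 136, lay within the TERT-on range. Mcm6 and Mcm7 had differences of −0.59 and −0.38, and Mcm4 one of −0.40 that did not pass (adjusted p = 0.0734). At 0 h Mcm6 and Mcm7 already had −0.23 and −0.30, neither of which passed. Mcm3 had a difference of −0.36 (SE 0.17) that did not pass (adjusted p = 0.144), and 1 of its 4 further probe sets did (−0.51, adjusted p = 0.0449).

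Of the 4 genes of origin recognition and licensing 1 passed, Cdt1, which brings the MCM ring to origins. Cdt1 ran from 193 to 351 (median 226) on the TERT-off arrays of 6 to 24 h and from 277 to 461 (median 354) on the TERT-on arrays (difference −0.49, SE 0.14, adjusted p = 0.0219). Its TERT-off arrays read 203 and 193 at 12 h, below the TERT-on range, and 351 and 343 at 24 h, within it. At 24 h itself the TERT-on arrays read 461 and 387, so the cohorts were still apart then. Cdc6, the licensing ATPase, had a difference of −0.64 with a larger error (SE 0.23, adjusted p = 0.0604); it ran from 19.0 to 46.7 on TERT-off arrays and from 40.5 to 74.1 on TERT-on arrays. Orc1, the large subunit of the origin recognition complex, overlapped on its brighter probe set, with 32.8 to 40.7 on TERT-off arrays and 30.9 to 42.0 on TERT-on arrays (difference −0.01, SE 0.14, adjusted p = 0.975). Its other probe set read 18.1 to 27.8 on TERT-off arrays and 27.1 to 36.2 on TERT-on arrays and did not pass either (−0.44, SE 0.18, adjusted p = 0.0952). Orc6 likewise had a difference of 0.01.

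Among the factors that activate the helicase, Mcm10, which joins the complex as origins fire, was the 1 of 6 that passed, with 44.9 to 72.1 on TERT-off arrays, against 59.0 to 82.7 on TERT-on arrays (difference −0.50, SE 0.11, adjusted p = 0.0106). None of the GINS subunits passed. Gins1 and Gins2 had differences of −0.46 and −0.40 (adjusted p = 0.0901 and 0.0711), Gins4 had 0.07, and Gins3 had 0.04 on its brighter probe set and −0.34 on the other (adjusted p = 0.257). Gins2 read 42.5 and 60.0 at 6 h and 131 and 108 at 24 h in the TERT-off mice, against 87.9 and 87.3 at 6 h and 144 and 94.6 at 24 h in the TERT-on mice, so its cohorts lay apart at 6 h and overlapped at 24 h. Cdc45 depended on the probe set. Its brighter one had a difference of 0.11 (adjusted p = 0.66), and the other, 21.9 to 48.4 on TERT-off arrays and 44.4 to 67.8 on TERT-on arrays, was lower by −0.68 (SE 0.17, adjusted p = 0.0147).

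The clamp had a small difference, with the cohorts apart at 0, 6 and 12 h and overlapping at 24 h. Pcna, the ring that tethers the polymerases, read 1526 and 1670 at 6 h, 1974 and 1667 at 12 h, and then 2169 and 1969 at 24 h in the TERT-off mice, against 2067 and 2152 at 6 h, 2106 and 2405 at 12 h, and then 2443 and 2073 at 24 h in the TERT-on mice. At 0 h Pcna read 2208 and 2213 in the TERT-off mice and 2338 and 2451 in the TERT-on mice. That difference of −0.12 did not pass. Over 6 to 24 h its difference of −0.28, the smallest of the 24 that passed, had the smallest error of all 49 genes (SE 0.07, adjusted p = 0.0179). Of the clamp loader subunits only Rfc5 passed: it read 147 and 180 at 6 h, 147 and 154 at 12 h, and then 233 and 205 at 24 h in the TERT-off mice, against 232 and 248, 245 and 299, and 312 and 273 at the same times in the TERT-on mice. A single TERT-off array of 24 h reached the lowest TERT-on value (difference −0.61, SE 0.11, adjusted p = 0.00452). Rfc1, the large subunit, had a difference of 0.09, and Rfc2, Rfc3 and Rfc4 had −0.16, −0.16 and −0.32, none of which passed.

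All 9 polymerase and primase genes had negative differences (median −0.30), and Pola2, Pold2 and Pole passed. Pold2, an accessory subunit of polymerase delta, had the lowest adjusted p of the 49 genes. It read 140 and 152 at 0 h, 76.2 and 94.2 at 6 h, 117 and 116 at 12 h, and then 189 and 169 at 24 h in the TERT-off mice. The TERT-on mice read 174 and 198 at 0 h, 160 and 203 at 6 h, 179 and 220 at 12 h, and then 246 and 229 at 24 h. The cohorts were apart at each time, also at 0 h, where the difference of −0.34 did not pass; over 6 to 24 h it was −0.76 (SE 0.11, adjusted p = 0.00231). Pola2, the regulatory subunit of polymerase alpha, ran from 41.6 to 79.8 on TERT-off arrays and from 72.9 to 108 on TERT-on arrays (−0.66, SE 0.13, adjusted p = 0.00687). Pole, the catalytic subunit of polymerase epsilon, had −0.56 (adjusted p = 0.0345), and Pole2, Pold3, Prim2 and Prim1, with −0.35, −0.30, −0.22 and −0.12, did not pass. Pola1, the catalytic subunit of polymerase alpha, overlapped fully, with 89.2 to 159 on TERT-off arrays and 95.1 to 180 on TERT-on arrays (−0.08, SE 0.18, adjusted p = 0.764). Pold1, the catalytic subunit of polymerase delta, passed on the dimmer of its 2 probe sets (−0.86, adjusted p = 0.00768) and not on the brighter (−0.22, adjusted p = 0.291).

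Of the genes of single-strand binding and Okazaki fragment processing 4 of 5 were lower (Rpa1, Rpa2, Fen1 and Lig1). Fen1, the flap endonuclease that trims RNA primers, was 1 of the 4 genes whose TERT-off arrays of 6 to 24 h all lay below all TERT-on arrays, a pattern that 4.83% of all tested genes showed; the other 3 were Rrm2, Dut and Chaf1b. Fen1 read 162 and 176 at 6 h, 160 and 146 at 12 h, and then 212 and 174 at 24 h in the TERT-off mice, against 239 and 221, 217 and 263, and 261 and 235 in the TERT-on mice (difference −0.49, SE 0.10, adjusted p = 0.00717). At 0 h Fen1 read 218 and 195 in the TERT-off mice and 241 and 231 in the TERT-on mice. That difference of −0.20 did not pass. Rpa1, the large subunit of replication protein A, ran from 433 to 609 on TERT-off arrays and from 576 to 794 on TERT-on arrays (−0.33, SE 0.09, adjusted p = 0.0225), and its second probe set did not pass (−0.28, adjusted p = 0.0832). Rpa2, the middle subunit, and Lig1, the ligase that seals the fragments, had differences of −0.34 and −0.485 (adjusted p = 0.0475 and 0.0379). Lig1 read 178 and 231 in the TERT-off mice and 303 and 237 in the TERT-on mice already at 0 h. That difference of −0.40 did not pass. The other probe set of Rpa2 had −0.59 with a larger error and did not pass (SE 0.31, adjusted p = 0.173). Rpa3, the small subunit, had 145 to 259 on TERT-off arrays and 170 to 245 on TERT-on arrays (−0.16, SE 0.17, adjusted p = 0.509).

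Among the roles of the chosen genes, nucleotide supply and uracil removal had the widest median difference, and all 5 of its tested genes were lower (median −0.92). This did not extend to nucleotide supply as a whole. Of the 7 other genes of nucleotide supply tested in the wider pathway described below, 3 were lower and 1 was higher, with a median of −0.03. Rrm2, the subunit of ribonucleotide reductase that is made in S phase, read 506 and 421 at 0 h, 258 and 439 at 6 h, 223 and 200 at 12 h, and then 486 and 356 at 24 h in the TERT-off mice. In the TERT-on mice Rrm2 read 544 and 514 at 0 h, 508 and 542 at 6 h, 524 and 644 at 12 h, and then 711 and 594 at 24 h. At 12 h the TERT-off mice thus had 36.4% of the TERT-on level, and over 6 to 24 h the difference was −0.92 (SE 0.15, adjusted p = 0.00392). Rrm1, the subunit that carries the active site, had a smaller one (−0.44, SE 0.15, adjusted p = 0.0433), and its other probe set did not pass (adjusted p = 0.057).

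Tk1, the thymidine kinase of cycling cells, read 125 and 208 at 6 h, 100 and 120 at 12 h, and then 227 and 139 at 24 h in the TERT-off mice, against 209 and 242, 232 and 323, and 400 and 316 in the TERT-on mice (difference −0.93, SE 0.18, adjusted p = 0.0063). At 0 h Tk1 read 170 and 175 in the TERT-off mice and 204 and 261 in the TERT-on mice. The cohorts were thus apart before the injection, by a difference of −0.42 that did not pass. At 6 h only TERT-off replicate 1 lay clearly below the TERT-on mice. Ung, the glycosylase that removes uracil from DNA, read 115 and 106 at 0 h, 28.7 and 69.6 at 6 h, 55.5 and 53.6 at 12 h, and then 104 and 110 at 24 h in the TERT-off mice. The TERT-on mice read 120 and 116 at 0 h, 114 and 153 at 6 h, 104 and 142 at 12 h, and then 172 and 158 at 24 h. Ung was level between the cohorts at 0 h, stood at 33.8% of the TERT-on level at 6 h, and had an average difference of −1.12 (SE 0.20, adjusted p = 0.00483). Dut, the dUTPase that keeps uracil out of new DNA, had a difference of −0.75 (SE 0.19, adjusted p = 0.0161). Its other probe set had −0.61 and did not pass (adjusted p = 0.106).

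**Figure D2:**
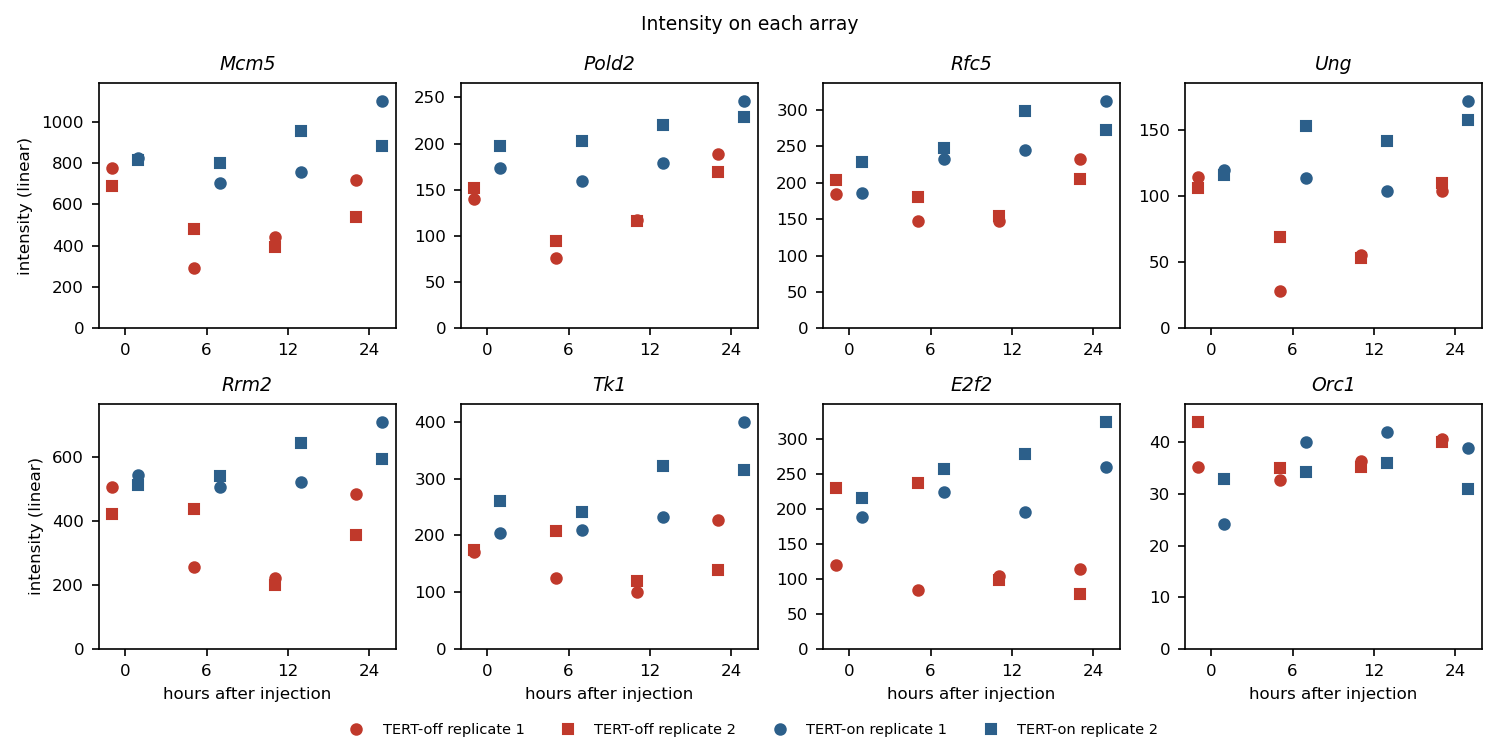
Linear intensity of 8 genes on each of the 16 arrays, with TERT-off arrays in red to the left of TERT-on arrays in blue at each time; circles are replicate 1 and squares replicate 2. Mcm5, Pold2, Rfc5, Ung, Rrm2 and Tk1 are lowest in TERT-off skin at 6 or 12 h. On its brighter probe set E2f2 is low in TERT-off replicate 1 from 0 h on. The cohorts overlap over 6 to 24 h for the brighter probe set of Orc1.

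Of the genes that act on chromatin behind the fork, Chaf1b, Uhrf1 and Dnmt1 passed and Slbp did not. Chaf1b, a subunit of the CAF-1 histone chaperone, ran from 40.5 to 67.3 (median 48.0) on TERT-off arrays and from 68.4 to 95.6 (median 75.8) on TERT-on arrays, without overlap (difference −0.62, SE 0.11, adjusted p = 0.00521). Uhrf1, which recognises hemimethylated DNA and recruits the maintenance methyltransferase, read 101 and 289 at 6 h, 138 and 154 at 12 h, and then 315 and 258 at 24 h in the TERT-off mice, against 261 and 374, 261 and 401, and 470 and 404 in the TERT-on mice (−0.88, SE 0.24, adjusted p = 0.0208). At 0 h Uhrf1 read 316 and 321 in the TERT-off mice and 426 and 394 in the TERT-on mice. That difference of −0.36 did not pass, nor did the 0.26 of its other probe set at 0 h. The 2 TERT-off mice differed widely at 6 h. Dnmt1, that methyltransferase, had a difference of −0.38 (SE 0.11, adjusted p = 0.0296). Its further probe sets had −0.46, which passed (adjusted p = 0.0407), and −0.38, which did not (adjusted p = 0.12). At 0 h the brightest Dnmt1 probe set had −0.27 and the further ones 0.01 and −0.03, none of which passed. Slbp, which binds the stem loop of histone mRNA, had a difference of −0.13 (SE 0.10, adjusted p = 0.368).

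Of the 4 regulators of S phase entry E2f2 alone passed, with the largest difference of the 49 genes (−1.20, SE 0.26, adjusted p = 0.00919). It read 120 and 229 at 0 h, 84.1 and 237 at 6 h, 104 and 98.9 at 12 h, and then 114 and 78.0 at 24 h in the TERT-off mice, against 188 and 215, 224 and 257, 195 and 278, and 259 and 324 at these times in the TERT-on mice. On this probe set TERT-off replicate 1 was therefore already lowest at 0 h. TERT-off replicate 2 stood within the TERT-on range at 6 h and far below it at 12 and 24 h. The dimmer E2f2 probe set also passed (−0.94, SE 0.27, adjusted p = 0.0262). At 0 h it read 89.4 and 162 in the TERT-off mice and 61.2 and 145 in the TERT-on mice, so there TERT-on replicate 1 was lowest. E2f1 had a difference of 0.05 on its brighter probe set (adjusted p = 0.794) and of −0.34 on the other tested one (adjusted p = 0.189). Ccne2, a cyclin E, ran from 45.1 to 103 on TERT-off arrays and from 78.4 to 120 on TERT-on arrays (−0.53, SE 0.23, adjusted p = 0.104). For Ccne1 the brighter probe set gave 0.01 (SE 0.13, adjusted p = 0.975), whereas the other gave −1.33 (SE 0.23, adjusted p = 0.00459), with 15.5 to 63.4 on TERT-off arrays and 57.4 to 86.2 on TERT-on arrays.

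Several probe sets were tested for 31 of the 49 genes. In 9 of them every probe set was lower, in 13 none passed, and in 9 some passed and some did not. Of these last, Ccne1, Cdc45, Mcm3 and Pold1 passed only on a probe set other than the brightest and are not among the 24.

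The cohorts were also compared at each time. At 0 h no gene passed and none reached an unadjusted p under 0.05 (0.00795% of all genes were lower by adjusted p), and the median was −0.01. At 6 h Pold2 and Ung were lower (0.596% of all genes), with a median of −0.40. At 12 h Mcm5, Rfc5, Pold2, Rrm2 and Tk1 were lower (0.66% of all genes), with a median of −0.52 and a negative difference in 48 of 49 genes. At 24 h none passed (0.58% of all genes) and the median was −0.29; 11 genes were lower at an unadjusted p under 0.05, where 10.6% of all genes were. No gene passed as higher at any time. The calls at 6 h were lost without the 6 h array of TERT-off replicate 1 and rose in number without TERT-off replicate 2. At 12 h none passed with no filter or when either TERT-on mouse was left out. The count at 12 h fell without either TERT-off mouse and without the 0 h or the 24 h array of TERT-on replicate 1. It rose without the 6 h array of TERT-off replicate 1. The share of all genes was not taken at single times under these settings, so these shifts are not read as particular to the replication genes.

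**Figure D3:**
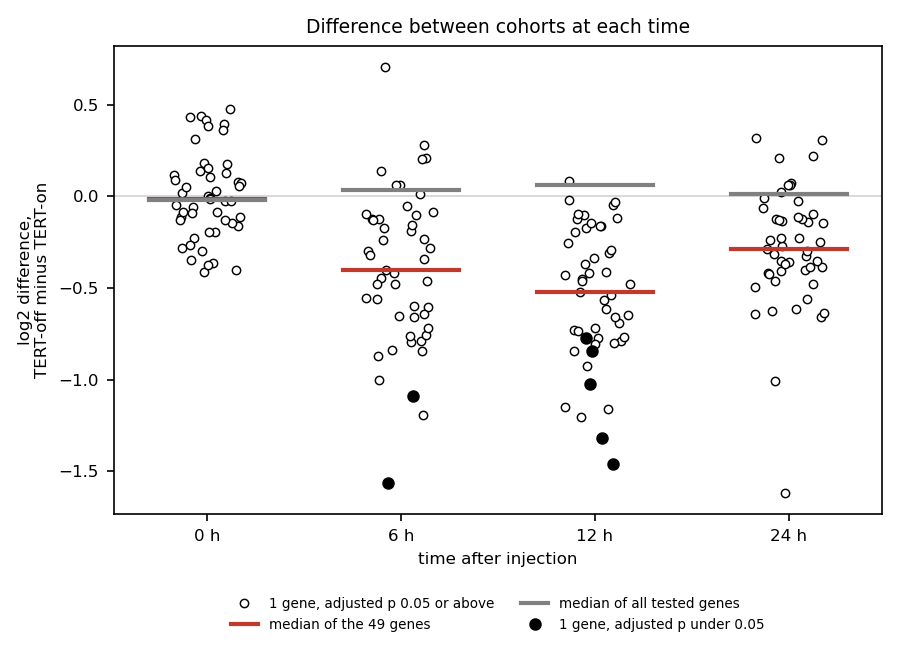
Difference between TERT-off and TERT-on skin (log2, TERT-off minus TERT-on) at 0, 6, 12 and 24 h; each point is 1 of the 49 genes, filled where its adjusted p is under 0.05, and lines mark the median of the 49 genes in red and of all tested genes in grey. The median of the 49 genes is −0.01, −0.40, −0.52 and −0.29 at these 4 times, and that of all tested genes lies between −0.02 and 0.06.

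The number of genes with both TERT-off arrays below both TERT-on arrays was 15 of 49 at 0 h, then 23 at 6 h, 37 at 12 h and 25 by 24 h. The shares of all genes with that order were 17.6%, 23.4%, 27.8% and 28.3% at these times. A less negative difference at 24 h than at 12 h was seen in 42 of the 49 genes and was not tested. The contrast between the effects at 24 h and at 6 h (24 h minus 6 h) was tested directly, and no gene passed (0.199% of all genes were higher); 4 were higher at an unadjusted p under 0.05, where 5.45% of all genes were. For Mcm2 this contrast was 1.05 (SE 0.46, adjusted p = 0.477), with differences of −1.19 at 6 h and −0.14 at 24 h.

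The 4 mice were also followed singly. In TERT-off replicate 1 the mean log2 intensity of the 49 genes was 7.64, 6.81, 7.03 and 7.59 at 0, 6, 12 and 24 h, and in TERT-off replicate 2 it was 7.50, 7.35, 7.03 and 7.38. In TERT-on replicate 1 it was 7.58, 7.41, 7.42 and 7.91 at these times, and in TERT-on replicate 2 it was 7.56, 7.54, 7.71 and 7.63. TERT-off replicate 1 held the lowest of the 4 values in 42 of 49 genes at 6 h, and the TERT-off mice were level at 12 h. At 24 h the highest value belonged to TERT-on replicate 1 in 40 of 49 genes and the lowest to TERT-off replicate 2 in 31; without that array of TERT-on replicate 1, 14 genes passed over 6 to 24 h (11.1% of all genes lower).

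Set against its own 0 h biopsy, TERT-off replicate 1 had 45, 45 and 34 of the 49 genes lower at 6, 12 and 24 h and TERT-off replicate 2 had 35, 47 and 32. TERT-on replicate 1 had 35, 32 and 4 lower, and TERT-on replicate 2 had 25, 12 and 15. The share of all genes below their own 0 h value was not taken. Their median change lay between −0.087 (TERT-on replicate 1 at 6 h) and 0.047 (TERT-off replicate 2 at 12 h). The 0 h array of TERT-on replicate 1 is the one with the low 5′ to 3′ Gapdh ratio (0.0599). No gene passed for the change from 0 h within TERT-off skin (0.135% of all genes lower) or within TERT-on skin (0.143%). At an unadjusted p under 0.05, 23 genes were lower than at 0 h in TERT-off skin and 1 in TERT-on skin, with 8.23% and 12.7% of all genes lower. The changes of the cohorts were also set against each other: none passed (0% of all genes lower), 12 were lower at an unadjusted p under 0.05 (4.16% of all genes), and the median was −0.45. A fall from the starting level that is particular to TERT-off skin was therefore not shown for any single gene by the adjusted test.

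Other genes of the replication pathway were lower in part. Of 72 such genes 69 were tested, of which 18 were lower and 3 higher over 6 to 24 h, with a median of −0.27. Of all tested genes 12.6% were lower and 16.9% higher. Orc3 and Orc5, subunits of the origin recognition complex, were higher, as was Samhd1, which degrades dNTPs. Samhd1 ran from 355 to 628 on TERT-off arrays and from 188 to 292 on TERT-on arrays (0.99, SE 0.20, adjusted p = 0.00692), opposite in sign to Rrm2. Orc3 ran from 190 to 246 on TERT-off arrays and from 118 to 184 on TERT-on arrays (0.64, SE 0.14, adjusted p = 0.0091).

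Among the genes of this wider set that were lower, Dbf4, the activator of the Cdc7 kinase that fires origins, ran from 86.6 to 268 on TERT-off arrays and from 198 to 268 on TERT-on arrays (−0.91, SE 0.19, adjusted p = 0.00852). Its value of 268 in TERT-off skin was that of replicate 2 at 6 h. Cdca7, a partner of the remodeller Hells, ran from 44.5 to 71.9 on TERT-off arrays and from 75.5 to 103 on TERT-on arrays, without overlap (−0.82, SE 0.14, adjusted p = 0.00439). Exo1, an exonuclease of mismatch repair, had −1.06 (SE 0.21, adjusted p = 0.00678), E2f8, a repressor of the E2F family, −0.85 (adjusted p = 0.00788), Ccna2, the cyclin of S and G2 phases, −0.75 (adjusted p = 0.0127), and Asf1b, a histone chaperone, −0.60 (adjusted p = 0.0139). Rnaseh2a and Dck passed with −0.34 and −0.43. Brca1 did not pass (−0.62, adjusted p = 0.0589).

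Genes of mitosis and of hair, and markers of macrophages, also differed between the cohorts, each with a median of the same sign already at 0 h. Of 25 mitosis genes 18 had negative differences at 0 h (median −0.18), none past the adjusted test, where 6652 of all 12580 genes had. Their list means at 0 h were 7.76 and 7.67 in the TERT-off mice and 7.94 and 7.85 in the TERT-on mice. At 0 h all 11 tested hair shaft keratins (median −1.65) and all 10 regulators of the hair matrix (median −0.74) had negative differences and all 7 macrophage markers positive ones (median 0.67), none past the adjusted test, where the replication genes had a median of −0.01. Of 25 mitosis genes 15 were lower over 6 to 24 h, with a median of −0.73, where 12.6% of all genes were lower. At 6, 12 and 24 h their median difference was −0.17, −1.02 and −1.04, where that of the replication genes was −0.40, −0.52 and −0.29. Of 11 hair shaft keratins 11 were lower (median −4.84), and of 10 regulators of the hair matrix 6 were lower (median −1.67). Hair shaft keratins averaged 4.18 and 10.87 on the log2 scale in TERT-off replicates 1 and 2 at 6 h, where the replication genes averaged 6.81 and 7.35. The keratin mean of replicate 2 leaves out Krt82, which was empty there. At 0 h the same mice had 4.38 and 10.96 for the keratins and 7.64 and 7.50 for the replication genes. The mouse low in hair keratins was thus not low in replication genes at 0 h.

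Of 7 macrophage markers 7 were higher (median 1.44), of 6 dermal fibroblast genes 5, of 5 tested neutrophil markers 4, of 2 tested lymphocyte markers 1, and of 7 skeletal muscle genes and 5 tested adipocyte genes 3 each. Of all tested genes 16.9% were higher and 12.6% lower. Of 7 basal keratinocyte genes 1 was higher and none lower (median 0.21), with list means of 10.20 to 10.76 on the TERT-off arrays of 6 to 24 h and 10.28 to 10.49 on the TERT-on arrays. At 0 h the list mean of these 7 genes was 9.98 and 10.11 in TERT-off skin and 10.53 and 10.40 in TERT-on skin, with 7 negative differences (median −0.47), none of which passed. Of 6 suprabasal genes 1 was lower over 6 to 24 h (median 0.07). The basal and suprabasal genes were thus called about as often as all genes. Macrophage markers averaged 8.88 to 10.16 on the TERT-off arrays of 6 to 24 h and 7.93 to 8.86 on the TERT-on arrays. The part of these cell types in the difference of the replication genes was not tested.

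**Figure D4:**
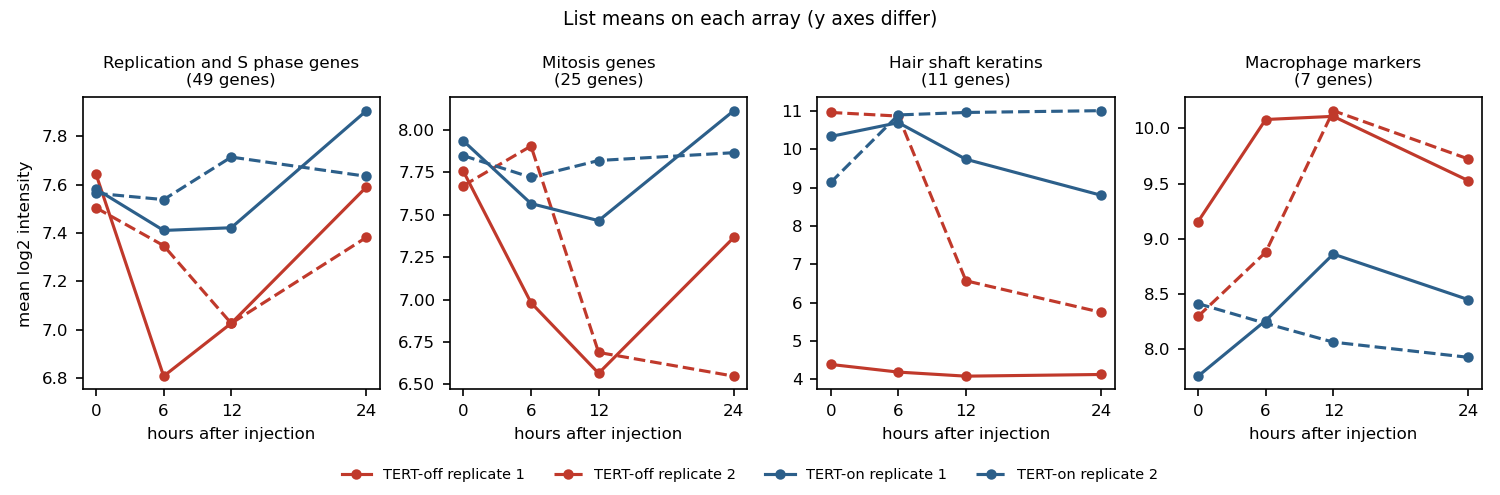
Mean log2 intensity of the 49 replication and S phase genes, 25 mitosis genes, 11 hair shaft keratins and 7 macrophage markers on each array (y axis) by time since injection in hours (x axis); a line joins the arrays of a mouse (TERT-off red, TERT-on blue; replicate 1 solid, replicate 2 dashed); the y axes differ. The replication genes of the TERT-off mice are lowest at 6 h (replicate 1, 6.81) and 12 h (replicate 2, 7.03) and stand at 7.59 and 7.38 at 24 h, when the mitosis genes stand at 7.37 and 6.55. Means leave out empty values: Krt33b, Krt81 and Krt86 in TERT-on replicate 1 at 0 h, Krt82 in TERT-off replicate 2 at 6 h, and Cd68 and Mrc1 in TERT-off replicate 1 at 24 h.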

How the data were processed

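The deposited table holds intensity values of 45101 probe sets on 16 arrays, on a linear scale. The authors made them in dChip, by invariant-set normalization and the perfect-match minus mismatch model. Values ran from 1 to 16736. A single gene symbol was given for 34958 probe sets, several for 932 and none for 9211; probe sets of the last 2 kinds were not assigned to a gene.

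A floor was set at the 20th percentile of all values (7.71) before log2 was taken. Probe sets that exceeded the overall median (34.4) on 2 or more arrays were tested, 25563 in all, for 12580 genes, each represented by its probe set of highest mean intensity. No array value of the 49 genes was empty or under the floor. A single limma fit (version 3.58.1, R 4.3.3, statmod 1.5.0) held a mean for each of the 8 groups, a random effect of mouse by duplicateCorrelation (0.0728) and moderation with an intensity trend. Its tests were two-sided, with Benjamini-Hochberg adjusted p-values over the 25563 probe sets and called under 0.05; SE is the standard error from the fit. With 2 mice in each cohort an exact two-sided permutation test over mice could not go below p = 0.333, so the p-values rest largely on the spread between biopsies, and the number of arrays limits the precision. The fit was tested on simulated data.

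The genes, their roles, the wider pathway and the marker lists were chosen with earlier results of these data known. Genes with values were, in each role, the 2 with the lowest adjusted p over 6 to 24 h and the 1 with the largest, those called at a single time, and the 2 with the lowest adjusted p of each list of the wider pathway; further genes and probe sets were added where a count or a disagreement called for them. Promoter windows are from RefSeq. The alternatives varied the floor, filter, normalization, block, trend, probe sets and arrays used. Figures were drawn with matplotlib 3.10.9.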

Additional observations from a re-analysis of the deposited data

Results flagged for a closer look

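From 0 h to 24 h the mean log2 intensity of the 49 genes changed by −0.052 in TERT-off replicate 1 and by −0.122 in TERT-off replicate 2, against 0.324 in TERT-on replicate 1 and 0.070 in TERT-on replicate 2. Both TERT-off mice thus moved down and both TERT-on mice up, which is what drew attention to it; the difference between the cohorts in this change was not tested for the mean. The change of TERT-on replicate 1 starts from the array with the low 5′ to 3′ Gapdh ratio (0.0599) and ends at the array with the highest mean of all 16 (7.91).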

How the results depend on the processing

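The count of 24 genes lower over 6 to 24 h was 16 to 28 under the other floors, filters, scalings, blocks and probe set rules, with none higher. It was 16 with no filter (9.06% of all genes lower) and 20 of 37 tested with a stricter filter (15.7%). With arrays centred on their medians it was 28 (16.9% of all genes lower and 14% higher, against 12.6% and 16.9%). It was 26 with quantile normalization (14.8% of all genes lower) and 27 with no mouse block (14.7%). It was 15 with the 12 and 24 h arrays only and 14 without the 24 h array of TERT-on replicate 1; leaving out 1 mouse gave 0 to 30. At 6 h (2 genes) the count was 1 with no filter, with no intensity trend, without the 0 h array of TERT-on replicate 1 and without the 24 h array of that mouse, 0 without the 6 h array of TERT-off replicate 1, and 0 to 15 without 1 mouse. At 12 h (5 genes) it was 0 with no filter, 2 with no intensity trend, without the 0 h array or without the 24 h array of TERT-on replicate 1, 18 without the 6 h array of TERT-off replicate 1, and 0 to 3 without 1 mouse. At 24 h (0 genes) it was 3 without that 6 h array and 0 to 2 without 1 mouse. The median of −0.38 was −0.47 with the median of all tested probe sets of a gene, −0.30 without the 6 h array of TERT-off replicate 1, and −0.44 to −0.32 without 1 mouse. With the median of its probe sets, Ccne1 had −0.66 in place of 0.01, because its 2 probe sets disagree. The share of all genes was not taken at single times under these settings, so the counts at 6, 12 and 24 h are not read as particular to the replication genes. The cause of the other shifts was not tested. Without a mouse each time keeps 1 array of that cohort, assumed to vary like the rest. The single arrays of 6 and 24 h were chosen after seeing the data.

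With the replicate number as a block (replicate block), 25 genes were lower over 6 to 24 h, where 16.2% of all genes were. At 12 h 9 genes were lower and at 24 h 1, times for which the share of all genes was not taken. Deviations of arrays with the same number correlated by −0.05, −0.13, 0.11 and 0.08 at 0, 6, 12 and 24 h, so the numbers were not taken to pair the cohorts.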
